A study of Sus scrofa with 10 samples.

Results

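The interleukin and tumour necrosis factor (TNF) families are the signalling proteins and receptors through which immune and tissue cells start, spread and stop inflammation, and 44 of their genes were read in aortic valve leaflets of swine. Genes were taken by symbol where a probe set of the Affymetrix GeneChip Porcine Genome array carries exactly 1 symbol, namely symbols that begin with IL and a digit, TNFSF, TNFRSF or TNFAIP, together with TNF, NFKB1 and NFKBIA. IL6 and TNFAIP6 were left out. The 44 genes have 54 of the 23999 probe sets, out of 6765 genes in all, and the brightest probe set, by its mean over all arrays, stood for each gene. By role there were 21 ligands, 17 receptors, 2 inhibitors (IL18BP and NFKBIA) and 4 other intracellular genes (NFKB1, TNFAIP1, TNFAIP8 and TNFAIP8L2).

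Of the 10 arrays 4, called adult RFH, came from leaflets of 2-year-old swine of the Rapacz familial hypercholesterolemic breed, which has inherited high blood cholesterol. Another 3 arrays came from juvenile RFH swine aged 3 months, and 3 from juvenile wild-type (WT) swine of the Rapacz Wisconsin Miniature breed, also 3 months old and labelled RFH -/-. All swine were female, ate standard chow and were killed by exsanguination after stunning, with leaflets in RNAlater inside the hour. The study set adult RFH against juvenile RFH leaflets and juvenile RFH against juvenile WT leaflets. With no adult WT leaflets analysed here, age and the course of the disease cannot be told apart in the adult comparison, and RFH genotype and breed cannot be told apart in the juvenile comparison. Whether each array is a separate animal is not stated in the labels, so p-values measure the spread between arrays, which may in part be technical.

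In these families a ligand, secreted or held on a cell surface, brings receptor chains together. Interleukin-1 and TNF receptors pass the signal to the transcription factor NF-kappaB, which IkappaB proteins such as the product of NFKBIA hold in the cytoplasm. Receptors of IL-4, IL-10 and the IL-2 group instead use JAK kinases and STAT factors. In valve leaflets these signals act on interstitial cells, the fibroblast-like cells that make the matrix, on the endothelial cells that cover the leaflet, and on resident macrophages.

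All values are log2 expression as the submitters deposited it, so a difference of 1 is 2-fold. The lower quartile of each array lay between 5.14 and 5.24 and the median between 6.96 and 7.03, and probe sets are not compared with each other in level. Of 8 measured interstitial or fibroblast genes 7 lay above the median on every array. Group means were 14.33 to 14.45 for vimentin (VIM) and 14.09 to 14.34 for decorin (DCN), but 6.66 to 7.34 for COL3A1. In 1 array, juvenile RFH replicate 2, the mean of 7 cardiac muscle genes was 9.52, against 5.17 in juvenile RFH replicate 1, 5.79 in juvenile RFH replicate 3, 5.24 to 5.45 in adult RFH arrays and 5.10 to 5.19 in juvenile WT arrays. The 12 poly-A labelling controls averaged 7.12 ± 0.16 (SD, n = 4) in adult RFH arrays, 6.32 ± 0.02 (SD, n = 3) in juvenile RFH arrays and 6.54 ± 0.06 (SD, n = 3) in juvenile WT arrays. The exact two-sided permutation p was 0.0286 for adult against juvenile RFH, the smallest that 4 against 3 arrays allow, so a labelling batch that follows age cannot be told apart from age. For juvenile RFH against juvenile WT the difference in the controls was -0.22, without overlap (exact two-sided permutation p = 0.1, and 3 arrays against 3 cannot give less), so the same holds for genotype. Control probe sets at the 3' end read above those at the 5' end, a gap that widens as RNA breaks down and that averaged 2.24 ± 0.45 in adult RFH arrays, 2.25 ± 0.14 in juvenile RFH arrays and 2.09 ± 0.09 in juvenile WT arrays. Among adult RFH arrays it was widest in replicate 3, at 2.84, and narrowest in replicate 1, at 1.75.

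Adult RFH leaflets had higher transcript levels of IL-10, IL-1 and several cytokine receptors than juvenile RFH leaflets. Of the 44 genes 10 rose (22.7%, where 11.4% of all 6765 genes rose) and 2 fell (4.55%, where 7.85% of all genes fell), at a limma p under 0.05 after Benjamini-Hochberg adjustment over all 23999 probe sets. Together 12 genes, 27.3%, passed, beside 19.3% of all genes. The median difference was 0.14 over the 44 genes and 0.02 over all genes. By role, 4 ligands rose and 1 fell of 21, 5 of 17 receptors rose, 1 of 2 inhibitors rose, and 1 of the 4 other genes fell. Leaving out juvenile RFH replicate 1, 2 or 3 brought the number that rose to 4, 6 or 4, and a fit of the RFH arrays alone brought it to 6. In 16 of the 44 genes, 36.4%, the adult and juvenile RFH arrays did not overlap, 14 with adults above and 2 below, beside 29.9% of all genes (16.6% above and 13.3% below). Also 16, 36.4%, had an unadjusted limma p under 0.05, beside 34.5% of all genes.

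**Figure D1:**
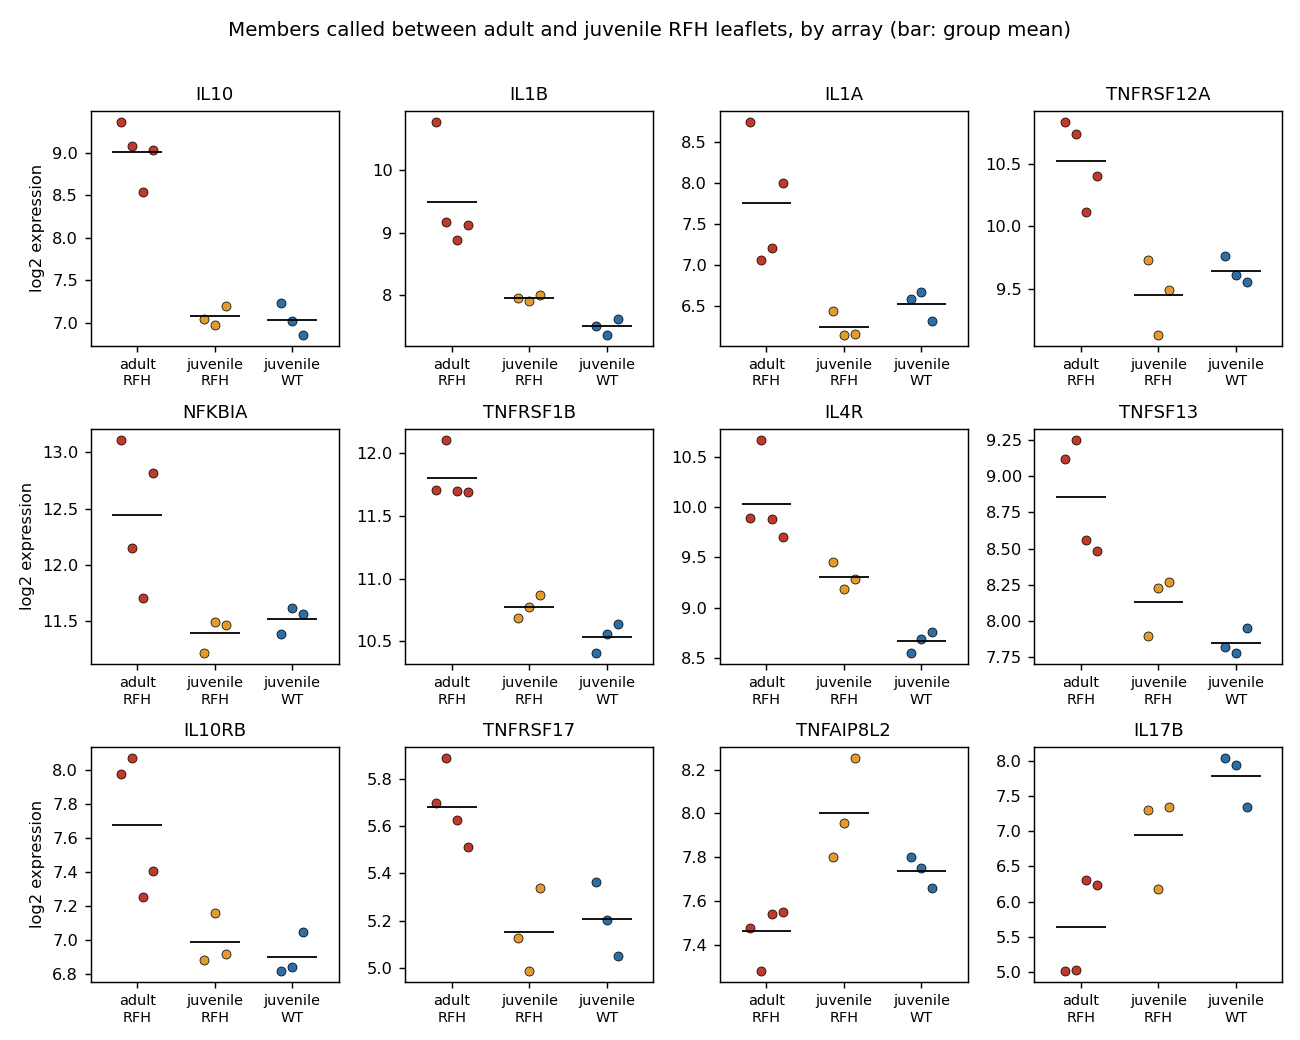
Log2 expression of the 12 genes that passed the test between adult and juvenile RFH leaflets, with 1 point per array (4 adult RFH, 3 juvenile RFH, 3 juvenile WT) and a bar at each group mean. In all panels but that of IL17B every adult RFH point lies on 1 side of every juvenile RFH point, and the vertical axes differ between panels.

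IL10, the cytokine that restrains macrophage and T cell activation, had the smallest p of the 44 genes. Its values were 9.36, 9.07, 8.54 and 9.04 in adult RFH arrays, 7.05, 6.98 and 7.20 in juvenile RFH arrays, and 7.24, 7.02 and 6.86 in juvenile WT arrays. Every adult array lay well above every juvenile array of either kind. IL10 rose 3.79-fold, by 1.92 ± 0.17 (SE) on the log2 scale (limma adjusted p = 9.31e-05), and passed under each of the 23 alternatives run.

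Both IL-1 ligands, which start inflammatory gene expression through a shared receptor, rose. IL1B, the secreted form, had values of 10.78, 9.17, 8.89 and 9.13 in adult RFH arrays, 7.95, 7.90 and 7.996 in juvenile RFH arrays, and 7.51, 7.36 and 7.63 in juvenile WT arrays. Every adult array was above every juvenile array, and adult replicate 1 stood above the other adults. The change of IL1B was 1.54 ± 0.36 (SE, 2.91-fold, adjusted p = 0.0166), and 1.11 without adult RFH replicate 1. Its adjusted p was 0.0571 or 0.0542 when juvenile RFH replicate 1 or 3 was left out, and 0.0503 in a fit of the RFH arrays alone. IL1A, the form that stays largely inside or on the cell, was at 8.74, 7.06, 7.21 and 7.995 in adult RFH arrays, 6.44, 6.15 and 6.17 in juvenile RFH arrays, and 6.59, 6.68 and 6.32 in juvenile WT arrays. Adult arrays again all lay above the juvenile ones, with replicate 1 the highest. IL1A rose by 1.498 ± 0.33 (SE, 2.82-fold, adjusted p = 0.0133), and the call was lost without juvenile RFH replicate 3 (adjusted p = 0.0524). A second probe set of each gene rose too, by 1.21 ± 0.17 for IL1A and 1.48 ± 0.34 for IL1B.

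TNFSF13, also called APRIL, a survival factor of plasma cells, had values of 9.12, 9.25, 8.56 and 8.49 in adult RFH arrays, 7.90, 8.22 and 8.27 in juvenile RFH arrays, and 7.82, 7.78 and 7.95 in juvenile WT arrays. The adult arrays fell into a higher pair, replicates 1 and 2, and a lower pair, both above all juvenile arrays. TNFSF13 rose by 0.72 ± 0.19 (SE, 1.65-fold, adjusted p = 0.0252). The call ended without adult RFH replicate 1 (adjusted p = 0.0574) or juvenile RFH replicate 1 (0.105), 2 (0.0503) or 3 (0.0536), and in a fit of the RFH arrays alone (0.068). It also ended with the mean of both probe sets (difference 0.41, adjusted p = 0.0765). With values below 4 raised to 4 the adjusted p was 0.0564, though no value of TNFSF13 lay below 4. The dimmer probe set of TNFSF13 had a difference of 0.09 ± 0.13 (adjusted p = 0.677).

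IL17B, a ligand of the IL-17 family that binds IL17RB, was the ligand that fell. Its values were 5.02, 5.03, 6.31 and 6.23 in adult RFH arrays, 7.30, 6.18 and 7.35 in juvenile RFH arrays, and 8.04, 7.94 and 7.35 in juvenile WT arrays. Adult replicates 3 and 4 lay just above juvenile RFH replicate 2, so the groups overlapped. IL17B fell by 1.30 on the log2 scale with an SE of 0.39 (adjusted p = 0.0464), a call that stands close to the threshold. It was lost without adult RFH replicate 1 (adjusted p = 0.101) or 2 (0.101), without juvenile RFH replicate 1 (0.162) or 3 (0.164), and without juvenile WT replicate 1 (0.0647), 2 (0.0687) or 3 (0.0587). Cyclic loess (0.0511), a fit of the RFH arrays alone (0.0918), array weights (0.0668) and values below 4 raised to 4 (0.102) also ended it. No value of IL17B itself lay below 4. With the mean of its probe sets the difference was -0.45 (adjusted p = 0.0656). The 2 dimmer probe sets of IL17B had differences of -0.0049 and -0.05, so the fall was read by 1 of 3 probe sets.

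Among the 16 ligands that did not pass, differences ran from -0.32 for TNFSF10, the death ligand TRAIL, to 0.46 for IL18, a cytokine of the IL-1 family. The TNFSF10 difference was -0.067 without adult RFH replicate 3. TNF itself, the founding ligand of its family, was at 6.17, 6.06, 6.14 and 6.14 in adult RFH arrays, 5.82, 5.77 and 6.39 in juvenile RFH arrays, and 5.95, 5.80 and 6.02 in juvenile WT arrays. Its groups overlapped, and the difference was 0.13 ± 0.14 (SE, adjusted p = 0.572). IL18 had values of 10.18, 9.99, 9.18 and 9.42 in adult RFH arrays, 9.20, 9.32 and 9.17 in juvenile RFH arrays, and 9.01, 8.998 and 8.75 in juvenile WT arrays. Its difference of 0.46 ± 0.21 did not pass (adjusted p = 0.161), but did without adult RFH replicate 3, the adult array nearest to the juveniles (0.64, adjusted p = 0.0301). IL34, a ligand of the macrophage growth factor receptor CSF1R, differed by 0.46 ± 0.20 (adjusted p = 0.152), and by 0.64 without adult RFH replicate 2 (adjusted p = 0.0215).

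For IL15, a cytokine that supports natural killer and memory T cells, the adult arrays spread widely around a difference near 0. It was at 9.08, 7.93, 7.15 and 8.21 in adult RFH arrays, against 7.98, 8.10 and 8.21 in juvenile RFH arrays. Another 8 ligands, IL2, IL4, IL5, IL7, IL12A, IL12B, IL17A and IL21, most of them made by lymphocytes or acting on them, lay below the lower quartile on every array, between 3.05 and 4.74. Their adult differences ran from -0.20 to 0.15, none called. At such levels a difference in transcript may not show on the array, and no detection calls were used.

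**Figure D2:**
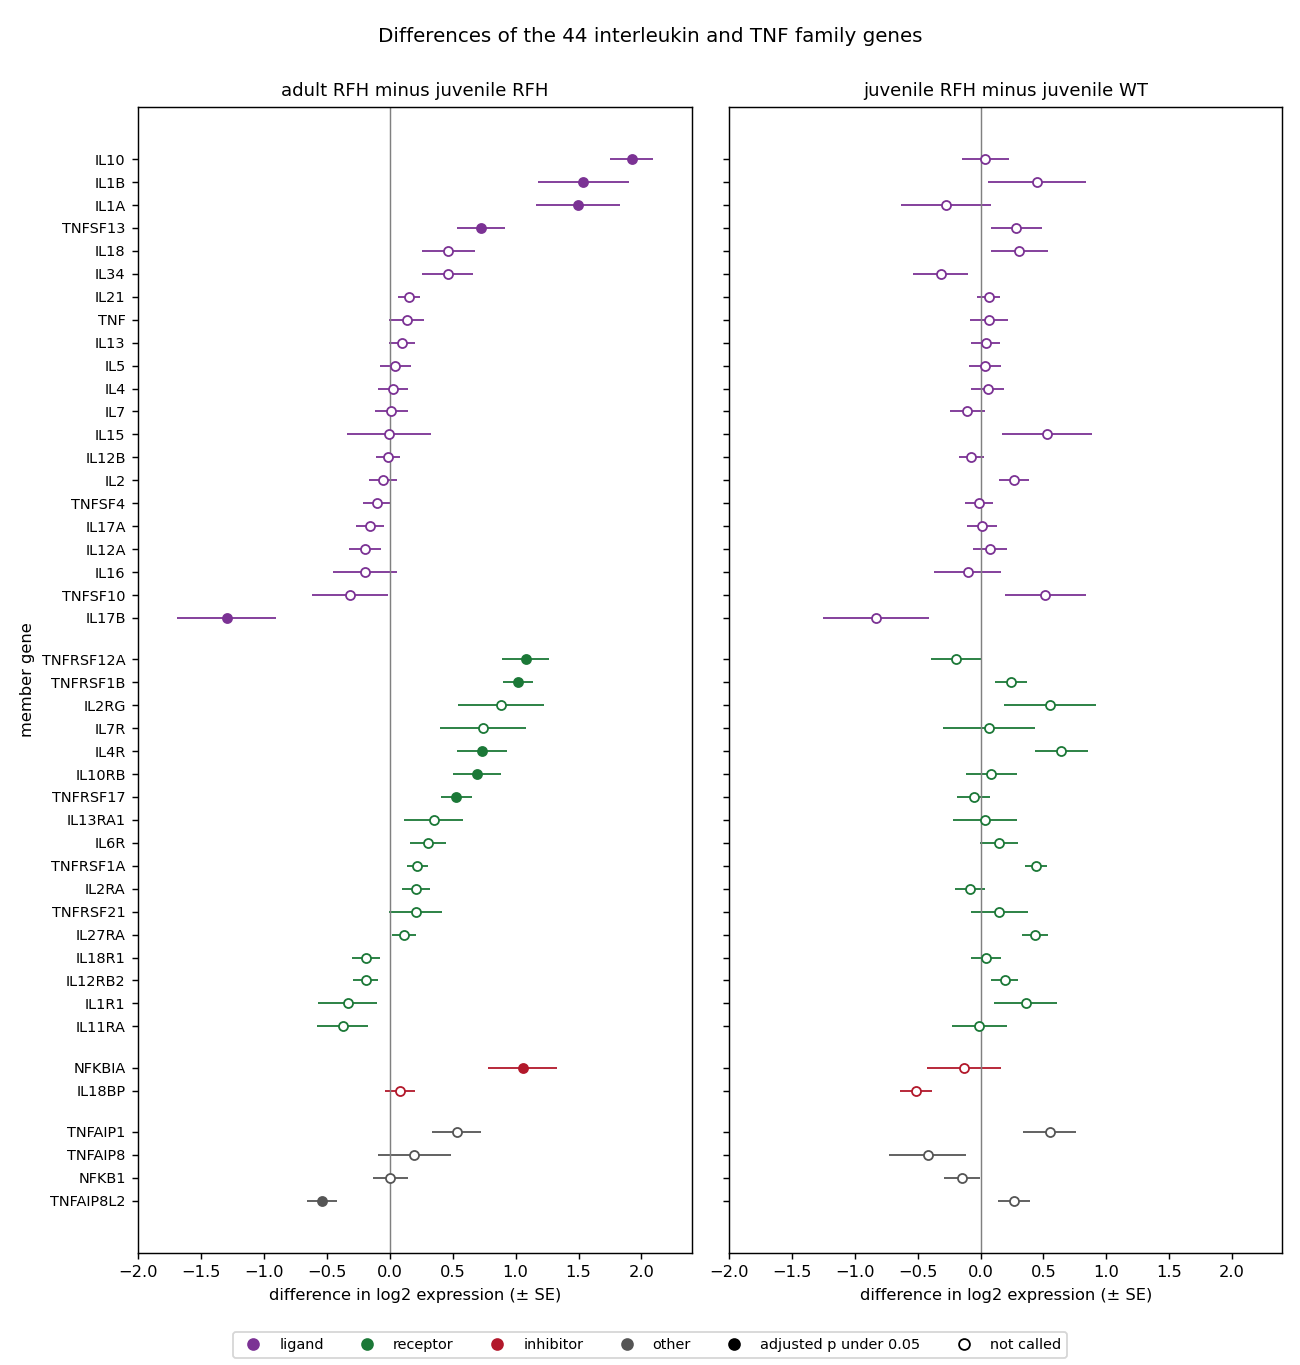
Differences in log2 expression (points, with SE) of the 44 genes for adult RFH minus juvenile RFH, left, and juvenile RFH minus juvenile WT, right, grouped as ligands, receptors, inhibitors and other genes, with filled points for an adjusted p under 0.05. On the left 12 points are filled, from IL10 at 1.92 to IL17B at -1.30, and on the right none is, and both panels share the juvenile RFH arrays.

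Receptors had a median adult difference of 0.30, against 0.02 for ligands and 0.02 for all genes. Of the 21 ligands 8 lay below the lower quartile on every array, and 0 of the 17 receptors did, so the 2 medians differ in signal too. The shares called were 29.4% of receptors and 23.8% of ligands, beside 19.3% of all genes. TNFRSF1B, the TNF receptor 2 found mainly on leukocytes and endothelium, was at 11.70, 12.11, 11.70 and 11.69 in adult RFH arrays, 10.69, 10.78 and 10.87 in juvenile RFH arrays, and 10.41, 10.56 and 10.64 in juvenile WT arrays. The adult arrays were tightly placed apart from replicate 2, and all lay above every juvenile array. TNFRSF1B rose 2.03-fold, by 1.02 ± 0.12 (SE, adjusted p = 0.000482). TNFRSF12A, also called Fn14, the receptor of the TNF family ligand TWEAK, is induced in injured tissue. It had values of 10.84, 10.75, 10.12 and 10.41 in adult RFH arrays, 9.73, 9.13 and 9.49 in juvenile RFH arrays, and 9.76, 9.61 and 9.56 in juvenile WT arrays. No adult array reached down to the juvenile range. TNFRSF12A rose 2.11-fold, by 1.08 ± 0.19 (SE, adjusted p = 0.00394), and by 1.47 ± 0.18 at its second probe set. Both receptors passed under all 23 alternatives.

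TNFRSF1A, the TNF receptor 1 that most cells carry, differed by 0.22 ± 0.08 (SE, adjusted p = 0.1) and did not pass. Its adult values of 10.33, 10.40, 10.27 and 10.19 all lay above the juvenile RFH values of 9.995, 10.13 and 10.12. TNFRSF17, the plasma cell receptor BCMA that binds TNFSF13, was low on these arrays, at 5.70, 5.89, 5.62 and 5.51 in adult RFH arrays, 5.13, 4.99 and 5.34 in juvenile RFH arrays, and 5.36, 5.20 and 5.05 in juvenile WT arrays. Adult arrays were higher without overlap. TNFRSF17 rose by 0.53 ± 0.12 (SE, 1.44-fold, adjusted p = 0.0161), which no longer passed without juvenile RFH replicate 1 (adjusted p = 0.0585) or 2 (0.0616). TNFRSF21, also called death receptor 6, differed by 0.20 ± 0.21 (adjusted p = 0.557).

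Chains of the IL-10 and IL-4 receptors rose. IL10RB, a chain that the IL-10 receptor shares with receptors of related cytokines, was at 7.98, 8.07, 7.25 and 7.41 in adult RFH arrays, 6.88, 7.16 and 6.92 in juvenile RFH arrays, and 6.82, 6.84 and 7.05 in juvenile WT arrays. The adult arrays again formed a higher pair of replicates 1 and 2 and a lower pair close above the juveniles. IL10RB rose by 0.69 ± 0.19 (SE, 1.61-fold, adjusted p = 0.0324). Without adult RFH replicates 1 or 2 the adjusted p was 0.0713 or 0.0636, without juvenile RFH replicates 1 or 3 it was 0.112 or 0.105, and without juvenile WT replicate 2 it was 0.0516. IL4R, the chain through which IL-4 and IL-13 signal, had values of 9.89, 10.67, 9.88 and 9.70 in adult RFH arrays, 9.45, 9.18 and 9.28 in juvenile RFH arrays, and 8.55, 8.69 and 8.76 in juvenile WT arrays. The 3 groups stood in separate ranges. IL4R rose by 0.73 ± 0.20 (SE, 1.66-fold, adjusted p = 0.0299), and the call was lost without juvenile RFH replicate 1 (adjusted p = 0.0609), 2 (0.0912) or 3 (0.0909). The dimmer IL4R probe set differed by 0.19 ± 0.10 (adjusted p = 0.255). Fitted on the RFH arrays alone, neither receptor passed (adjusted p = 0.0785 for IL10RB and 0.0754 for IL4R).

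The 12 receptors that did not pass differed by -0.37 for IL11RA, a receptor of IL-11, to 0.88 for IL2RG. The IL11RA difference was -0.16 without adult RFH replicate 2. IL2RG, the common gamma chain that receptors for IL-2, IL-4, IL-7, IL-15 and IL-21 share, was at 7.88, 8.66, 7.40 and 6.81 in adult RFH arrays, 6.57, 6.79 and 7.05 in juvenile RFH arrays, and 6.27, 6.002 and 6.49 in juvenile WT arrays. One adult array, replicate 4, lay inside the juvenile RFH range. Its difference of 0.88 ± 0.34 did not pass (adjusted p = 0.106), and without that array it was 1.18 (adjusted p = 0.0183). IL7R, the IL-7 receptor chain of lymphocytes, was at 5.21, 6.38, 4.47 and 4.92 in adult RFH arrays, against 4.51, 4.50 and 4.49 in juvenile RFH arrays. Adult replicate 2 stood highest and replicate 3 lay below all juvenile RFH arrays. The difference of IL7R was 0.74 ± 0.34 (adjusted p = 0.165), and 1.00 without replicate 3 (adjusted p = 0.0411). IL13RA1, which pairs with IL4R, differed by 0.35 ± 0.24 (adjusted p = 0.356), and by 0.62 without adult RFH replicate 3 (adjusted p = 0.00347).

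IL1R1, the signalling receptor of IL1A and IL1B, had no call beside its ligands' rise. It was at 9.29, 9.05, 8.10 and 8.73 in adult RFH arrays, 8.94, 9.20 and 9.26 in juvenile RFH arrays, and 8.78, 8.61 and 8.93 in juvenile WT arrays. The adult values spread on both sides of the juvenile RFH values, with a difference of -0.34 ± 0.23 (SE, adjusted p = 0.365), and of -0.11 without adult RFH replicate 3. The dimmer IL1R1 probe set, below the lower quartile on every array, differed by 0.18 ± 0.08 the other way without overlap (adjusted p = 0.162). IL6R, the ligand-binding chain for IL-6, was near the lower quartile, at 5.34, 5.06, 5.21 and 5.21 in adult RFH arrays, against 4.89, 4.92 and 4.89 in juvenile RFH arrays and 4.64, 4.48 and 5.14 in juvenile WT arrays. The adult arrays did not overlap with the juvenile RFH arrays, and the difference of 0.30 ± 0.14 did not pass (adjusted p = 0.174).

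NFKBIA, the inhibitor that holds NF-kappaB in the cytoplasm and is itself a target of NF-kappaB, was at 13.11, 12.15, 11.71 and 12.82 in adult RFH arrays, 11.22, 11.50 and 11.47 in juvenile RFH arrays, and 11.39, 11.62 and 11.57 in juvenile WT arrays. All adult arrays were above the juvenile ones, by little in replicate 3 and by much more in replicates 1 and 4. NFKBIA rose 2.08-fold, by 1.06 ± 0.28 (SE, adjusted p = 0.0259). The call was lost without adult RFH replicate 4 (adjusted p = 0.051), without juvenile RFH replicate 1 (0.0973), 2 (0.0545) or 3 (0.0702), and when the RFH arrays were fitted alone (0.0685). IL18BP, the secreted protein that neutralises IL-18, differed by 0.08 ± 0.12 (adjusted p = 0.69).

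NFKB1, which encodes the p50 subunit of NF-kappaB and its precursor, had values of 5.44, 5.23, 5.35 and 5.86 in adult RFH arrays, 5.39, 5.44 and 5.57 in juvenile RFH arrays, and 5.64, 5.65 and 5.56 in juvenile WT arrays. Its groups overlapped, and the difference was 0.0047 ± 0.14 (SE, adjusted p = 0.987). TNFAIP8L2, also called TIPE2, restrains lymphoid and myeloid cell activation in mice. The brightest probe set of TNFAIP8L2 was at 7.48, 7.28, 7.54 and 7.55 in adult RFH arrays, 7.80, 7.96 and 8.25 in juvenile RFH arrays, and 7.80, 7.75 and 7.66 in juvenile WT arrays. It fell by 0.54 with an SE of 0.12 (adjusted p = 0.0119), all adult arrays lying below the juvenile RFH arrays. The other probe set of TNFAIP8L2 differed the opposite way, by 0.62 ± 0.27 (adjusted p = 0.141), and the mean of both differed by 0.04, so the direction for the gene depends on the probe set. TNFAIP1, an adaptor for a ubiquitin ligase, differed by 0.53 ± 0.20 (adjusted p = 0.0932) and passed without juvenile WT replicate 1 (adjusted p = 0.0252) or in a fit of the RFH arrays alone (0.0315). TNFAIP8 differed by 0.20 ± 0.29 (adjusted p = 0.698), and by 0.51 without adult RFH replicate 3 (adjusted p = 0.0365). The dimmer TNFAIP8 probe set, below the lower quartile on every array, differed by -0.0032 ± 0.15 (adjusted p = 0.991).

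**Figure D3:**
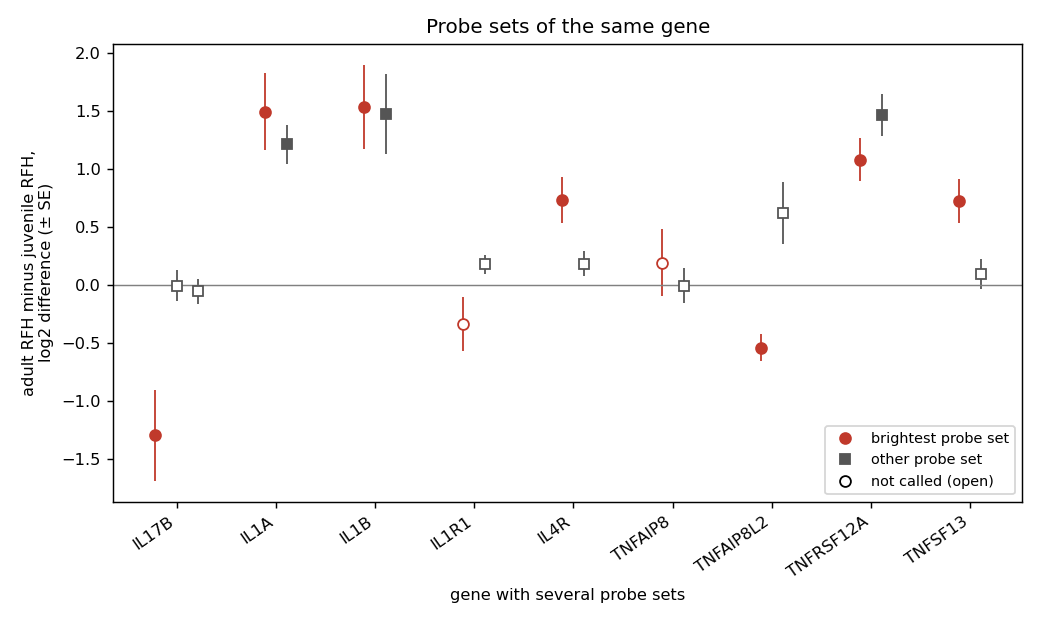
Adult RFH minus juvenile RFH difference in log2 expression, with SE, for every probe set of the 9 genes that have more than 1, with circles for the brightest probe set, squares for the others and filled marks for an adjusted p under 0.05. The probe sets of IL1A, IL1B and TNFRSF12A lie together, between 1.08 and 1.54, those of IL17B, IL4R and TNFSF13 differ in size, and those of TNFAIP8L2 lie at -0.54 and 0.62.

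Of the further genes that carry TNF, IL-1 and NF-kappaB signals, 21 of 52 listed were measured, of which 5 rose (beside 11.4% of all genes) and none fell (beside 7.85%). The other 16 did not pass, and the median difference was 0.18. NFKBIB, a second IkappaB protein, rose by 1.43 ± 0.13 (SE, adjusted p = 0.000105) at its brightest probe set, while its other probe set was not called (adjusted p = 0.178). IKBKG, the regulatory subunit of the IkappaB kinase, rose by 0.43 ± 0.10 (adjusted p = 0.0133), again with a second probe set that was not called (adjusted p = 0.698). CYLD, a deubiquitinase that dampens NF-kappaB, rose by 0.43 ± 0.11 (adjusted p = 0.0211). The per-array mean of the 21 genes was 7.86 to 8.21 in adult RFH arrays, 7.73 to 7.86 in juvenile RFH arrays and 7.70 to 7.73 in juvenile WT arrays.

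Of JAK-STAT genes that serve interleukin receptors, 17 of 31 listed were measured, of which 6 rose (beside 11.4% of all genes) and 2 fell (beside 7.85%). The other 9 did not pass, and the median difference was 0.28. SOCS3, the feedback inhibitor that IL-10 and IL-6 induce, rose by 2.61 ± 0.17 (SE), its relative SOCS4 by 2.44 ± 0.28 and the IL-6 family cytokine LIF by 2.02 ± 0.28, with adjusted p of 1.3e-05, 0.000427 and 0.00123. All juvenile values of these 3 genes lay below the lower quartile of every array, where no detection calls were used, so the sizes of the differences are not well set. PIAS1 fell by 0.34 with an SE of 0.08 (adjusted p = 0.0169), and the kinase gene TYK2 by 0.30 with an SE of 0.08 (adjusted p = 0.0344) at 1 of its 4 probe sets. Both lists were chosen for their place in the pathways, with earlier results of these data known.

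In whole leaflets more cells of a type and more RNA per cell cannot be told apart, and among the marker lists that of macrophages stood higher in every adult RFH array than in every juvenile array. Every list count below stands beside 11.4% of all 6765 genes that rose and 7.85% that fell. Of 12 measured macrophage genes 6 rose and none fell, and the list mean was 10.22, 10.33, 9.81 and 9.83 in adult RFH arrays, 9.39 to 9.45 in juvenile RFH arrays and 9.01 to 9.15 in juvenile WT arrays. Adult replicates 1 and 2, the higher pair for TNFSF13 and IL10RB, were also the higher pair here, whereas NFKBIA and IL1A were highest in replicates 1 and 4. Replicate 1 held the highest adult value in 47.7% of the 44 genes and 30.8% of all genes, and replicate 2 in 34.1% and 29.2%. These shares count single highest arrays, and how often both replicates form the higher pair was not tested. Of 12 endothelial genes 3 rose and 1 fell, with list means of 8.39 to 9.27 in adult RFH arrays, 8.29 to 8.54 in juvenile RFH arrays and 7.96 to 8.25 in juvenile WT arrays. None of 10 T or NK cell genes was called, and their mean was 5.86, 6.65, 5.57 and 5.49 in adult RFH arrays, 5.51 to 5.56 in juvenile RFH arrays and 5.22 to 5.43 in juvenile WT arrays, highest in adult replicate 2, where IL2RG and IL7R were also highest. Neither of 2 B or plasma cell genes was called, beside the rise of TNFRSF17. JCHAIN, the joining chain of antibodies made by plasma cells, was at 9.55, 10.68, 7.32 and 6.76 in adult RFH arrays, 6.22 to 6.95 in juvenile RFH arrays and 6.56 to 6.91 in juvenile WT arrays (adult difference 1.96 ± 0.77, adjusted p = 0.108), with adult replicate 4 inside the juvenile range. CD79B, a chain of the B cell receptor, differed by 0.04 ± 0.09 (adjusted p = 0.796). Of 5 neutrophil genes 1, S100A9, rose (adjusted p = 0.0048), at 5.52 to 8.18 in adult RFH arrays, against 4.45 to 4.60 in juvenile RFH arrays, all below the lower quartile, and the list mean was 4.94 to 6.16 in adult RFH arrays, 4.82 to 5.03 in juvenile RFH arrays and 4.68 to 4.801 in juvenile WT arrays. Of other lists, 2 of 8 interstitial or fibroblast genes, 1 of 5 smooth muscle genes and 2 of 3 erythroid genes fell and none rose, and lists this short give only coarse shares. The interstitial or fibroblast mean, at 11.59 to 12.09, was lower in every adult RFH array than in every juvenile array. It was 12.30 to 12.36 in juvenile RFH and 12.39 to 12.46 in juvenile WT arrays. Adult differences of the 8 genes ran from -1.06 to -0.06. The erythroid mean was 6.28 to 7.24 in adult RFH, 7.56 to 8.48 in juvenile RFH and 6.83 to 7.34 in juvenile WT arrays. Juvenile RFH arrays stood above both other groups for the list genes ALAS2 and AHSP. HBB, at 9.51 to 9.82 in juvenile RFH arrays, overlapped adult RFH (8.93 to 9.56) and juvenile WT arrays (9.71 to 10.01). The part of these cells, or of the poly-A difference, in the changes of the 44 genes was not tested.

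**Figure D4:**
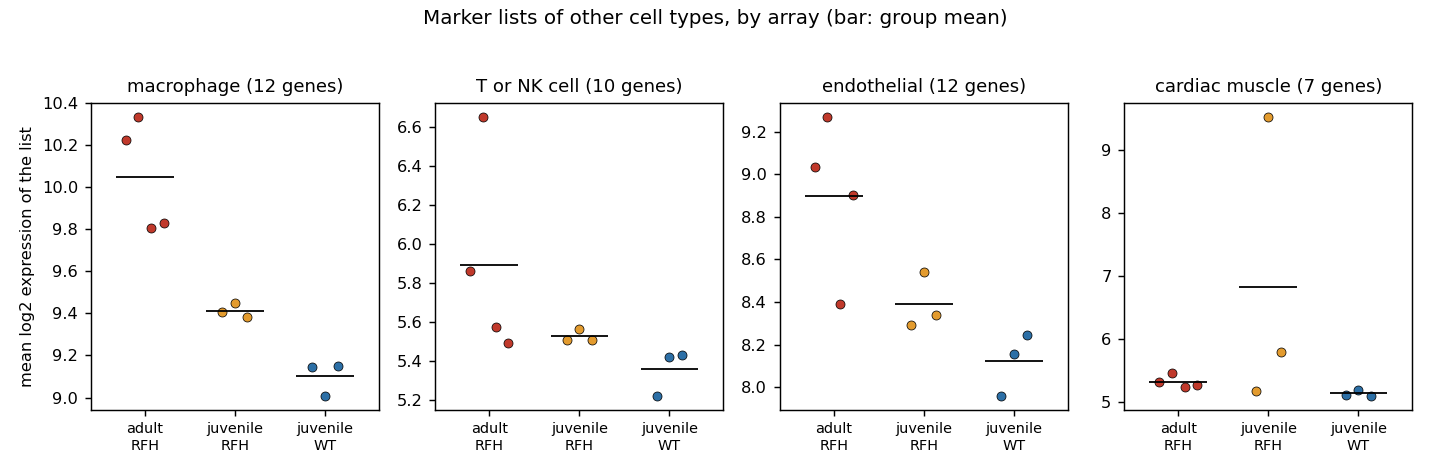
Mean log2 expression of macrophage, T or NK cell, endothelial and cardiac muscle marker lists in each of the 10 arrays, with a bar at the group mean. Macrophage means run from 9.81 to 10.33 in adult RFH arrays, above the 9.39 to 9.45 of juvenile RFH arrays, and the cardiac muscle mean of 9.52 belongs to juvenile RFH replicate 2.

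Between juvenile RFH and juvenile WT leaflets none of the 44 genes passed, where 0.133% of all genes did (0.0887% up and 0.0443% down). By limma 6 had an unadjusted p under 0.05, 13.6%, beside 15.1% of all genes. The median difference was 0.06, against 0.07 over all genes. Juvenile RFH and juvenile WT arrays did not overlap in 15 of the 44 genes, 34.1%, with 12 above and 3 below, beside 35.8% of all genes (26.3% above and 9.53% below). These shares of the 44 genes were near those of all genes. The adult arrays vary more than the juvenile ones and enter the shared estimate of spread. With only the 2 juvenile groups in the fit 5 genes rose, beside 3.62% of all genes up and 1.20% down (4.82% in all), namely IL4R (adjusted p = 0.0252), IL15 (0.0267), TNFRSF1A (0.0297), IL27RA (0.041) and IL1B (0.0416). With array weights 3 rose, TNFRSF1A (adjusted p = 0.0102), IL27RA (0.0192) and IL4R (0.0311), and IL18BP fell (0.0256), beside 4.21% of all genes up and 1.66% down (5.87% in all). These calls are for the brightest probe set. IL4R and IL1B each have a dimmer one, whose juvenile groups overlapped, with differences of 0.16 and 0.07. In the fit of all 10 arrays their limma adjusted p was 0.62 and 0.964.

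**Figure D5:**
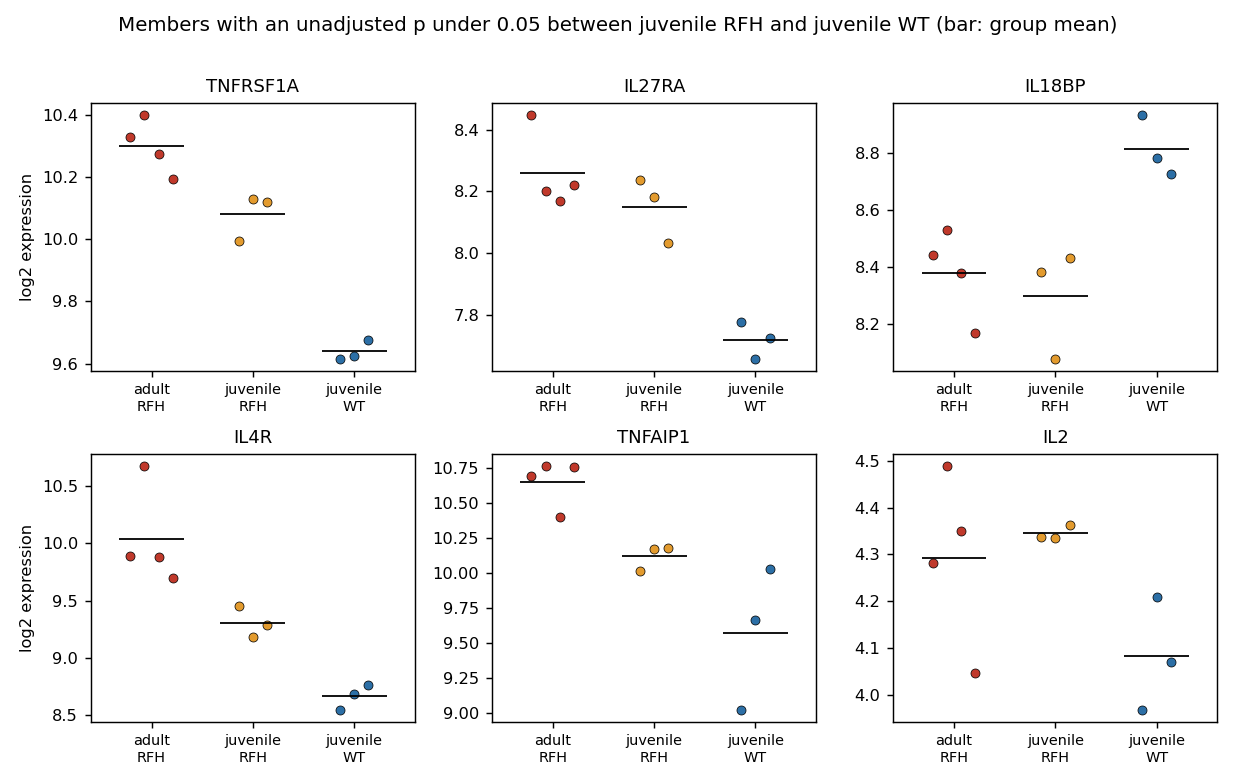
Log2 expression of the 6 genes with an unadjusted p under 0.05 between juvenile RFH and juvenile WT leaflets, with 1 point per array and a bar at each group mean, adult RFH arrays included. TNFRSF1A, IL27RA, IL4R and IL2 lie higher in juvenile RFH than in juvenile WT arrays without overlap, IL18BP lies lower, and TNFAIP1 overlaps.

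TNFRSF1A had the smallest p of this comparison. Its values were 9.995, 10.13 and 10.12 in juvenile RFH arrays, against 9.62, 9.63 and 9.68 in juvenile WT arrays, a clear gap. The difference was 0.44 ± 0.09 (SE, 1.36-fold, adjusted p = 0.0965). IL27RA, the receptor chain of IL-27, was at 8.24, 8.18 and 8.03 in juvenile RFH arrays, against 7.78, 7.66 and 7.72 in juvenile WT arrays. Juvenile RFH arrays were higher without overlap, by 0.43 ± 0.10 (SE, 1.35-fold, adjusted p = 0.137), and adult RFH arrays, at 8.17 to 8.45, lay near juvenile RFH (adult difference 0.11 ± 0.10, adjusted p = 0.481). IL4R, whose values are given above, differed by 0.64 ± 0.21 (SE, 1.56-fold, adjusted p = 0.247) between juvenile RFH and juvenile WT, and passed without adult RFH replicate 2 (adjusted p = 0.0499). The dimmer IL4R probe set differed by 0.16 ± 0.11 (adjusted p = 0.62).

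IL18BP, the IL-18 inhibitor, was lower in juvenile RFH, at 8.38, 8.08 and 8.43, than in juvenile WT arrays, at 8.93, 8.78 and 8.73. The groups did not overlap, and the difference was -0.51 ± 0.13 (SE, adjusted p = 0.146). IL18, its target, differed by 0.31 ± 0.23 in the other direction (adjusted p = 0.627), and its receptor chain IL18R1 by 0.04 ± 0.12 (adjusted p = 0.926). IL15 was at 7.98, 8.10 and 8.21 in juvenile RFH arrays, against 7.60, 7.55 and 7.56 in juvenile WT arrays, higher without overlap. Its difference was 0.53 ± 0.36 (SE, adjusted p = 0.591), an SE set largely by the adult arrays, whose SD was 0.80 against 0.11 in juvenile RFH and 0.03 in juvenile WT. IL1B differed by 0.45 ± 0.39 (adjusted p = 0.691), with 0.07 ± 0.37 at its dimmer probe set, and IL10 by 0.04 ± 0.18 (adjusted p = 0.964).

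Among the remaining genes of this comparison, differences of ligands ran from -0.83 for IL17B (-0.45 without juvenile RFH replicate 2) to 0.53 for IL15 and those of receptors from -0.19 for TNFRSF12A to 0.64 for IL4R. The 2 dimmer probe sets of IL17B differed by -0.24 and 0.07. TNFAIP1 was at 10.02, 10.17 and 10.18 in juvenile RFH arrays, against 9.03, 9.66 and 10.03 in juvenile WT arrays, which overlapped (difference 0.55 ± 0.21, adjusted p = 0.317). Beside IL18BP, the genes lower in juvenile RFH than in juvenile WT arrays without overlap were IL34 (difference -0.32 ± 0.22, adjusted p = 0.602) and TNFAIP8 (-0.42 ± 0.31, adjusted p = 0.628). At the dimmer TNFAIP8 probe set the juvenile groups overlapped (-0.08 ± 0.16, adjusted p = 0.894). NFKBIA differed by -0.13 ± 0.30 (adjusted p = 0.904) and TNF by 0.07 ± 0.15 (adjusted p = 0.898). Of the 21 TNF, IL-1 and NF-kappaB signalling genes and the 17 JAK-STAT genes none was called, with medians of 0.08 and 0.01. None of the 12 macrophage genes was called here, with a median of 0.43, and every juvenile RFH list mean lay above every juvenile WT list mean, which was also so for the T or NK cell, endothelial, neutrophil and erythroid lists, while the interstitial or fibroblast means, 12.30 to 12.36 in juvenile RFH arrays and 12.39 to 12.46 in juvenile WT arrays, lay the other way. None of these lists had a called gene in this comparison. Their part, and that of the poly-A difference, in the differences of the 44 genes was not tested.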

How the data were processed

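Total RNA of 10 leaflet samples was biotin-labelled and hybridised to Affymetrix GeneChip Porcine Genome arrays, per the labels. The deposited values are log2 expression, 1 per probe set and array, a unit read from the values. Per the submitters' processing notes R 2.15.2 was used, while how background, scaling and probe summaries were handled is not given in the sources used here. The 124 Affymetrix control probe sets were set aside. Of 23999 probe sets, 10069 carry 1 symbol in the array annotation, 198 several and 13732 none, and the gene IDs and symbols of all 44 genes were found in the RefSeq gene table.

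Group means of all 10 arrays were fitted under R 4.3.3 by the lmFit and eBayes functions of limma 3.58.1 (no trend, 7 residual and 3.57 prior degrees of freedom), with two-sided p-values adjusted by Benjamini-Hochberg over 23999 probe sets. Rose and fell mean an adjusted p under 0.05. SE are limma's moderated ones. The fit was also run on simulated data with the same spread in all groups, so this run did not test the wider spread of the adult arrays. Control probe sets were read as array means. Genes, lists, tests and naming rules were chosen with earlier results of these data known. Every gene could be named, with values per array for called genes and a fixed list, and up to 3 called genes per direction of each pathway list. Outside that rule, values per array are also given for IL2RG, IL7R, IL15, IL27RA, IL18BP and TNFAIP1, which were not called. The number of arrays limits the precision. No sequences of these genes were used here.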

Additional observations from a re-analysis of the deposited data

Results flagged for a closer look

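In the 4 adult RFH arrays, 2 of the 44 genes had 1 array whose gap to the next, divided by the group's range, was above Dixon's 95% critical value. IL1B was 10.78 in adult RFH replicate 1, against 8.89 to 9.17 in the other adults. TNFRSF1B was 12.11 in adult RFH replicate 2, against 11.69 to 11.70 in the other adults. Chance flags about 1 in 20 groups, which is 2.2 of 44. Both genes lay above all juvenile arrays in each adult array.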

How the results depend on the processing

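Each value was recomputed under 23 alternatives, 22 of them planned, and a covariate for the 3' to 5' difference was chosen after seeing the data. Of the 10 genes that rose and 2 that fell in adult against juvenile RFH leaflets, IL10, TNFRSF1B and TNFRSF12A passed under all, and with TNFAIP8L2 they are the 4 that passed whichever array was left out. Of these 12 only TNFAIP8L2 changed sign, to 0.0419 with the mean of its probe sets. The number that rose was 6 with only the 2 groups compared, 6 with a 2-fold threshold, 7 with values below 4 raised to 4, and 4 to 14 with 1 array left out. Raising values below 4 to 4 ended the calls of IL10RB, IL4R, NFKBIA, TNFSF13 and IL17B and added one for TNFRSF1A (adjusted p = 0.035). None of these genes had a value below 4, and their differences were unchanged. Their calls moved through the spread estimate and p adjustment shared with other probe sets. The number that fell was 1 with cyclic loess, without dim probe sets (22 of the 44 genes remained), with only the 2 groups compared, with array weights, with values below 4 raised to 4 and with a 2-fold threshold, 0 when all probe sets of a gene were averaged, and 1 to 2 with 1 array left out. For juvenile RFH against WT the number that rose was 5 with only the 2 groups compared, 3 with array weights and 0 to 1 with 1 array left out, and the number that fell was 1 with array weights and 0 in the others. The labels do not say whether replicate numbers shared by the groups pair the arrays. Correlations of same-numbered deviations ran from -0.156 to 0.185, which cannot settle this with 3 or 4 arrays per group. With the replicate number as a block 10 rose, 2 fell and 0 were called between juveniles, though NFKBIA lost its call (adjusted p = 0.0738) and IL2RG gained one (0.0354), and adult RFH replicate 4 has no partner in that block. Scaling by quantiles or medians left all 4 counts as they were. Low signal limits the 8 ligands under the lower quartile.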

Other observations

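Adult RFH arrays varied more than juvenile arrays for these genes, with a median SD over the 44 genes of 0.26 in adult RFH arrays, 0.11 in juvenile RFH arrays and 0.12 in juvenile WT arrays. Of the 4 adult arrays, replicate 1 held the highest value in 21 of the 44 genes (47.7%, against 30.8% of all genes), among them IL1A, IL1B, IL10, IL15, IL18 and NFKBIA. Replicate 3 held the lowest value in 20 (45.5%, against 33.7% of all genes), among them IL10, IL1B, IL15, IL18, IL1R1, IL7R and TNFRSF12A. The excess of 3' over 5' control signal was 1.75 in replicate 1, the narrowest of the adults, and 2.84 in replicate 3, the widest. With it as a covariate, chosen after seeing the data, 10 genes rose and 2 fell. Its mean was 2.24 in adult and 2.25 in juvenile RFH arrays, so the covariate could hardly move the adult differences. The part of RNA quality in them was not tested. The array weights that limma estimated were 0.425 to 0.947 for adult RFH, 0.969 to 1.31 for juvenile RFH and 1.64 to 2.51 for juvenile WT arrays.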
